A study of Mus musculus with 16 samples.

Results

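The Kruppel-like factors described here are 10 mouse genes, Klf2, Klf3, Klf4, Klf5, Klf6, Klf9, Klf10, Klf11, Klf13 and Klf15, found by gene identifier among the 55385 genes of the count table. Gene-level short-read RNA-Seq counts were available for 8 tissues (muscle, heart, white and brown adipose, liver, kidney, lung and spleen) of male C57BL/6 mice acquired at 12 weeks of age. The fed group had continuous access to standard chow, and the fasting group went without food for 24 h. All groups were wild-type mice of 1 strain and 1 sex with no transgene or drug. Equal amounts of tissue from 3 mice were combined per group, so each tissue and treatment had 1 library, 16 in all, and no measure of the spread between mice. The comparison asked which members differed between fasting and feeding in each tissue and over the 8 tissues together, and how the level of each member differed between tissues.

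Library totals ranged from 14245178 to 36069968 counts, and a count of 0 in the deepest and shallowest library allowed up to 0.0832 and 0.211 CPM (counts scaled to the library total), that is, 3 counts of the total. The labels were set against defining markers. The summed level of 4 muscle markers (Acta1, Myh4, Ckm, Tnnt3) was 125294 CPM in fed and 125289 CPM in fasting muscle and at most 2317 CPM elsewhere, in heart. The 4 adipocyte markers summed to 12447 and 12312 CPM in white adipose, fed and fasting, and to 8820 and 10080 CPM in brown adipose. The liver, kidney, lung, heart and brown adipose lists were likewise highest in their own tissue, and the B cell and T cell lists were highest in spleen. Markers of other cell types differed between the 2 libraries of several tissues, and lists with at least 2 genes called in 1 direction are given here or beside the members, with their summed levels fed and fasting. In fasting heart 4 of 4 liver markers were called higher (sum 22.0 CPM fed, 70.2 CPM fasting), and the adipocyte list, with 1 of 4 genes at 1 CPM or more and that gene called higher, summed to 372 and 832 CPM. In heart 2 of 4 skeletal muscle markers were also called higher (2317 and 2219 CPM) and 2 of 4 fibroblast markers lower (750.2 and 824 CPM). In fasting spleen 2 of 4 smooth muscle markers were called lower (271 and 178 CPM), and of 4 fibroblast markers 1 was called higher and 2 lower (183 and 282 CPM). In kidney 3 of 4 liver markers were called lower, with sums of 1538 and 1541 CPM, 2 of 4 adipocyte markers higher and 1 lower (66.2 and 107 CPM), and 2 of 4 brown adipocyte markers higher (10.4 and 14.2 CPM). In muscle 2 of 4 adipocyte markers (148 and 151 CPM), 2 of 9 endothelial markers (327 and 266 CPM) and 2 of 4 fibroblast markers (929 and 826 CPM) were called lower. In liver no list had 2 such genes, but with 1 gene called in each the adipocyte list summed to 26.9 and 130.5 CPM and the brown adipocyte list to 541 and 242 CPM. In white adipose 5 of 5 epithelial markers were called higher (33.2 and 299 CPM) and 3 of 9 endothelial markers lower (1443 and 1248 CPM). The part of these lists in the heart, spleen, kidney, muscle, liver and white adipose values below was not tested.

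Kruppel-like factors bind GC-rich and CACCC elements through a conserved zinc finger domain at the C terminus, and they differ in the N-terminal part, which recruits coactivators or corepressors. Klf15 promotes gluconeogenesis and amino acid breakdown in liver and muscle, and Klf9 is a known target of the glucocorticoid and thyroid hormone receptors. Klf2 and Klf4 maintain quiescence of the endothelium, Klf10 and Klf11 respond to transforming growth factor beta, and Klf3 is a repressor that recruits Ctbp proteins.

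Levels between genes were compared per kilobase of gene length (CPM per kb). Klf9 had the highest CPM per kb of the 10 members in 11 of 16 libraries, Klf2 in 3, and Klf6 and Klf15 in 1 each. Klf2 led in both spleen libraries, at 71.1 and 73.6 CPM per kb, and in fed lung, at 89.9 CPM per kb. Klf15 led in fasting liver, at 67.9 CPM per kb against 45.1 for Klf9, whereas in fed liver Klf9 led at 45.4 CPM per kb against 38.8 for Klf15. Klf5 was lowest of the 10 in all 16 libraries, from 0.0334 CPM per kb in fed liver to 10.3 in fasting lung. Scaled to library totals, the summed level of the members was highest in lung, at 339 CPM per kb fed and 402 fasting, and lowest in fed muscle, at 90.0 CPM per kb. This order holds for library totals only. The trimmed-mean scaling factors of the fit below, by which totals are multiplied, were 0.558 and 0.524 in fed and fasting muscle and 1.48 and 1.40 in lung.

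**Figure D1:**
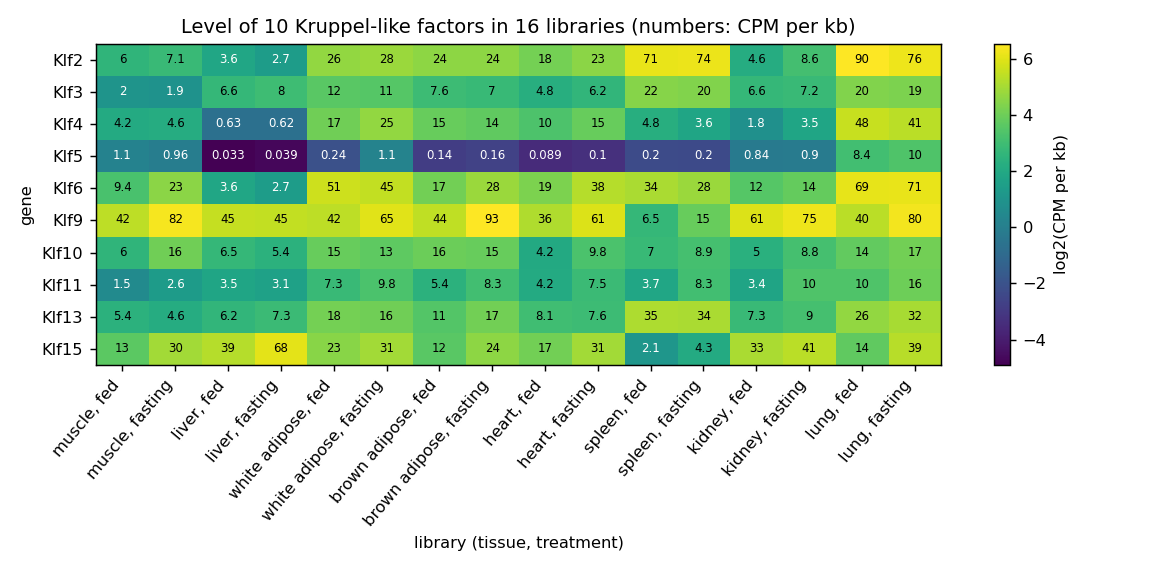
Level of the 10 members (rows) in the 16 libraries (columns), as CPM per kb of gene length; the color scale is log2. Klf9 is high in every tissue but spleen, Klf5 is low in every tissue but lung, and Klf2 is highest in spleen and lung.

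Within each tissue the fasting library was set against the fed library with Fisher's exact test. A gene was called at an absolute log2 fold change, log2((CPM fasting + 0.01)/(CPM fed + 0.01)), above 0.5 and an unadjusted p under 0.01. With 1 pooled library on each side these calls compare libraries and not conditions, so folds are given with a 95% exact interval that covers counting error only, and no p. Of the 80 pairs of member and tissue, 30 were called higher in fasting and 0 lower, and in 77 pairs the member was at 1 CPM or more in a library. In muscle, 5 of 10 members were called higher, against 7.80% of all genes at 1 CPM or more (16.4% were called lower). In heart, 6 of the 9 members at 1 CPM or more were called higher, against 7.01% of genes (9.65% lower). In brown adipose the count was 5 of 9, against 8.68% (12.2% lower). In kidney it was 4 of 10, against 4.48% (6.23% lower), in lung 3 of 10, against 4.23% (10.1% lower), and in spleen 3 of 10, against 3.62% (2.33% lower). In white adipose it was 3 of 10, against 19.8% of genes (9.23% lower), and in liver 1 of 9, against 7.34% (15.8% lower). The shares in liver and white adipose were thus the closest to their backgrounds. Klf9, Klf11 and Klf15 supplied 18 of the 30 calls, and Klf3 supplied none.

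**Figure D2:**
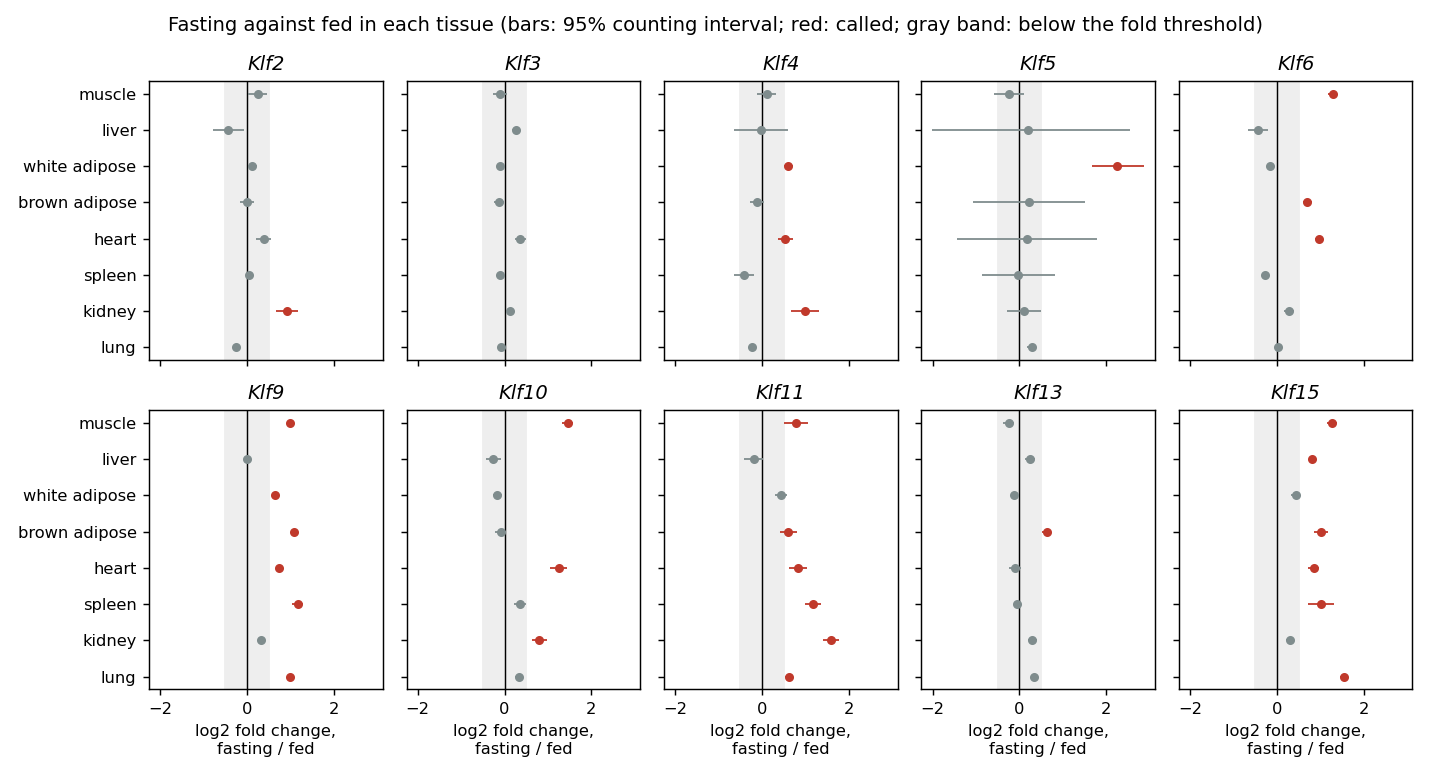
Log2 fold change of each member in each tissue, fasting over fed, with the 95% counting interval; red points were called and the gray band marks changes under the fold threshold. Klf9, Klf11 and Klf15 lie to the right of the band in 6 tissues each, and no point in the plot was called lower.

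Across tissues, 1 fit over the 16 libraries with tissue as a block (edgeR quasi-likelihood test, 17296 genes tested) called 2.31% of all genes higher and 2.08% lower in fasting at a Benjamini-Hochberg adjusted p under 0.05. All tissues were taken from the same 2 groups of mice. This test therefore measures how even a difference was over tissues and not its spread between mice. Of the members, 3 passed it. Klf15 was higher by 0.94 on the log2 scale (SE 0.14, adjusted p = 0.0107), Klf9 by 0.78 (SE 0.13, adjusted p = 0.0154) and Klf11 by 0.77 (SE 0.16, adjusted p = 0.0294). Klf10 did not pass, at 0.49 (SE 0.20, adjusted p = 0.172), although its unadjusted p was 0.0337. The estimates of the other 6 members ranged from 0.07 for Klf3 to 0.43 for Klf5, with adjusted p values from 0.306 to 0.644. None of the 10 was called lower by edgeR, by DESeq2 or at an unadjusted p under 0.05, since all 10 estimates were above 0. An exact paired sign-flip permutation test (two-sided) of single members over the 8 tissues gave p = 0.0078 for Klf15, the smallest that the sign patterns of 8 tissues can give, and p = 0.0156 for both Klf9 and Klf11. Klf15 kept its call when any 1 tissue was left out (adjusted p from 0.00535 to 0.0422). Klf9 lost its call without brown adipose (adjusted p = 0.0503). Klf11 lost its call without brown adipose (0.0715), heart (0.0774), lung (0.0621), muscle (0.0763) or spleen (0.0503). The estimates in these fits stayed near those of the main fit. Klf9 was higher by 0.73 without brown adipose. Klf11 was higher by 0.79 without brown adipose, 0.76 without heart, 0.78 without lung, 0.75 without muscle and 0.71 without spleen. Whether the fasting difference itself varied between tissues could not be tested with 1 library per tissue and treatment.

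**Figure D3:**
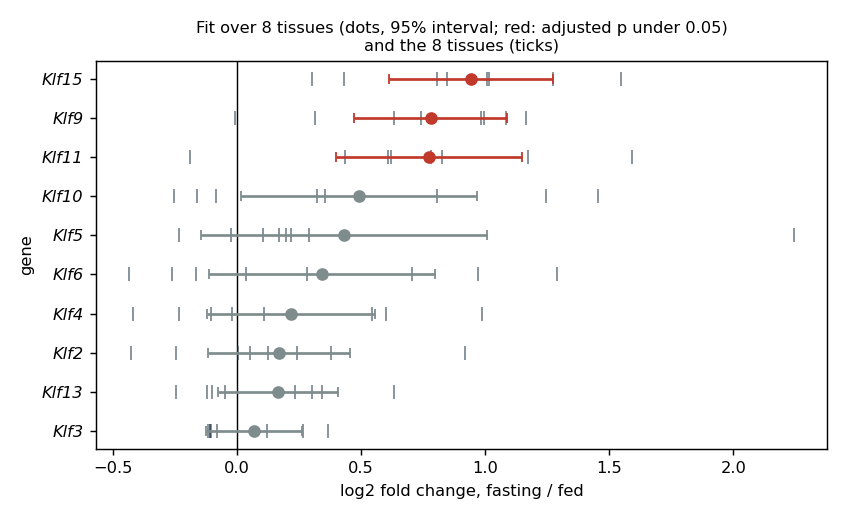
Log2 fold change over the 8 tissues from the edgeR fit (dots, with the 95% interval on 7 residual degrees of freedom) and the value of each tissue from CPM (ticks). The intervals of Klf15, Klf9 and Klf11 start at 0.61, 0.47 and 0.40, and the tick of Klf5 at 2.25 is white adipose.

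Klf15 (chr6:90462576-90475238, plus strand, GRCm38) was higher in the fasting library in 8 of 8 tissues and was called in 6. In liver, where its level was highest, Klf15 went from 108 CPM fed to 190 CPM fasting, which is 1.75-fold (95% interval 1.67 to 1.84). In lung Klf15 went from 37.7 to 110.2 CPM, 2.92-fold (2.74 to 3.13), the highest fold of the 8 tissues for this gene. In the same lung libraries 4 of 4 heart markers (942 CPM fed, 484 CPM fasting in sum), 4 of 4 B cell markers (157 and 78.0 CPM) and 5 of 5 T cell markers (62.6 and 18.4 CPM) were called lower. Of the adipocyte markers 3 of 4 were called higher (65.5 and 118 CPM), of the skeletal muscle markers 2 higher and 1 lower (20.0 and 16.9 CPM), and of the liver markers 1 higher and 2 lower (25.6 and 47.1 CPM). Their part in the lung values of Klf15, Klf9 and Klf11 was not tested. In muscle Klf15 went from 35.2 to 85.0 CPM, 2.42-fold (2.24 to 2.61). These folds, with 2.02-fold in brown adipose (33.5 to 67.7 CPM), 2.01-fold in spleen (5.92 to 11.9 CPM) and 1.80-fold in heart (47.9 to 86.1 CPM), made up the 6 calls. Klf15 was not called in white adipose, at 63.2 and 85.4 CPM, or in kidney, at 93.1 and 114.8 CPM. In order of mean CPM over both libraries the tissues were liver, kidney, white adipose, lung, heart, muscle, brown adipose and spleen. The ranges of neighbors overlapped except between kidney and white adipose and between brown adipose and spleen, so most of that order was not resolved. The edgeR fit, scaled by trimmed means, placed muscle (0.97) second to liver instead of kidney (0.92), as log2 differences from the mean of the other tissues. Spleen was lower than the mean of the other tissues by 3.80 on the log2 scale in the edgeR fit, and liver was higher by 2.26.

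Klf9 (chr19:23141226-23168134, plus strand), a factor that binds GC-rich promoter elements, was higher in the fasting library in 7 of 8 tissues and was called in 6. Its level in brown adipose was 210.2 CPM fed and 446 CPM fasting, 2.12-fold (2.03 to 2.21). In muscle it was 201 and 397 CPM, 1.98-fold (1.91 to 2.04), and in lung 193 and 386 CPM, 1.995-fold (1.93 to 2.06). In these 3 tissues the fed levels in CPM were alike and the fasting levels were close to 2 times as high. In spleen Klf9 was at 31.5 CPM fed and 70.7 CPM fasting, 2.24-fold (2.06 to 2.45). In heart it went from 175 to 292 CPM and in white adipose from 203 to 314 CPM, and both were called. In kidney the value was 292 CPM fed and 363 CPM fasting, which was not called, and in liver 219 and 217 CPM, 0.99-fold (0.96 to 1.03). The interval covers counting error only, and with trimmed-mean factors the liver log2 fold change was 0.12 and outside it. In CPM all 6 pairs of neighbors in the order from kidney, the highest, to liver overlapped in range, and spleen stood below the rest. In the edgeR fit that order was different, with muscle highest (1.46 on the log2 scale against the mean of the other tissues), then liver (0.79) and kidney (0.59), and spleen was again the lowest (-3.15).

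Klf11 (chr12:24651274-24662789, plus strand), a repressor that recruits Sin3a, was higher in 7 of 8 tissues and was called in 6. In kidney it went from 14.8 CPM fed to 44.6 CPM fasting, 3.02-fold (2.67 to 3.42), the highest of its folds. In spleen Klf11 went from 15.9 to 35.9 CPM, 2.25-fold (1.99 to 2.55). In heart, muscle, lung and brown adipose it was called at 1.77-, 1.72-, 1.54- and 1.52-fold. White adipose, at 31.6 and 42.7 CPM, stayed under the fold threshold. In liver the fasting library was the lower one, at 15.3 CPM fed and 13.4 CPM fasting, with an interval of the fold from 0.75 to 1.02. In these libraries the 3 members called across tissues did not share 1 order of tissues: kidney was the highest fold of Klf11 but among the lowest of Klf9 and Klf15, and liver was called for Klf15 alone.

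**Figure D4:**
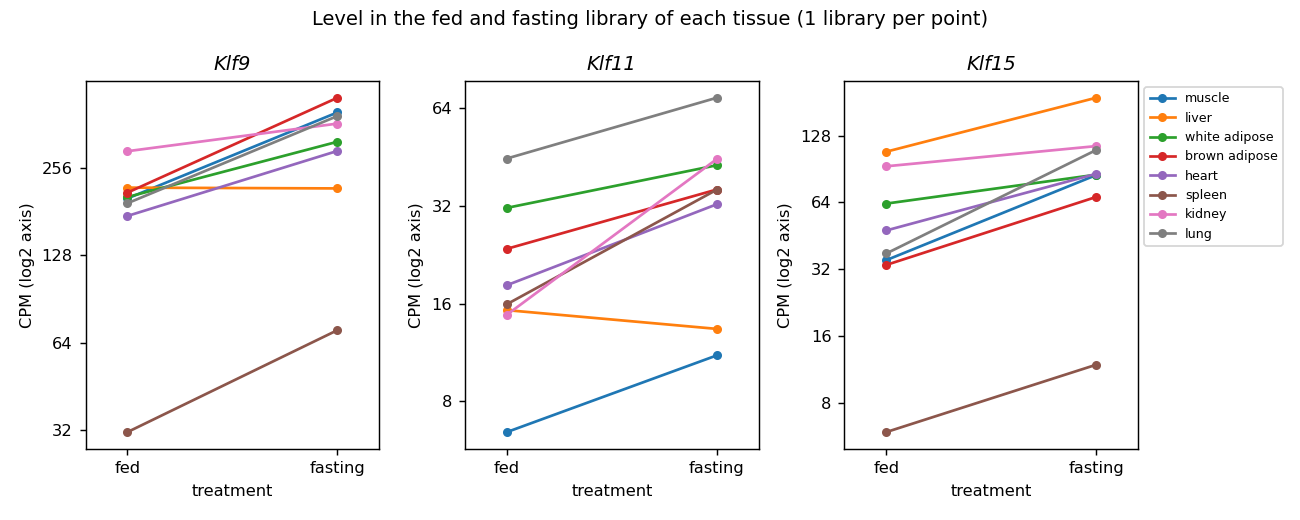
Level of Klf9, Klf11 and Klf15 in the fed and fasting library of each tissue, in CPM on a log2 axis; each point is 1 library and each line 1 tissue. The lines rise except those of liver for Klf9, which goes from 219 to 217 CPM, and Klf11, which falls from 15.3 to 13.4 CPM.

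The promoter sequences of these 3 members, from 250 bases before to 50 bases after the RefSeq start site (GRCm38.p6), are given because they were the members higher over tissues. RefSeq promoters were matched for 8 of the 10 members. Each sequence runs 5′ to 3′ on the strand of the gene, and capitals mark the E-box CACGTG and the forkhead site GTAAACA.
Klf9, chr19:23140976-23141275: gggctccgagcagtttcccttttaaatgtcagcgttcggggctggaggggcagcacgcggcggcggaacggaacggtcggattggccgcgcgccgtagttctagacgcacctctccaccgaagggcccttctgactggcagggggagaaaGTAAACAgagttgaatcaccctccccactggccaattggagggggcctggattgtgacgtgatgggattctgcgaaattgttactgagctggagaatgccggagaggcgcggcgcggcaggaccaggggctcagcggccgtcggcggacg
Klf11, chr12:24651121-24651420: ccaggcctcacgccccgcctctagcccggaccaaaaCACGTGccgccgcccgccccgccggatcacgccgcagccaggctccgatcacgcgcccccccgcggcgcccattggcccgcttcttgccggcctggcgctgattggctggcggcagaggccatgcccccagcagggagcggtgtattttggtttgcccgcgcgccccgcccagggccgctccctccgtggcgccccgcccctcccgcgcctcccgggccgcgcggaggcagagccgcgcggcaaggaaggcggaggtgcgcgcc
Klf15, chr6:90462326-90462625: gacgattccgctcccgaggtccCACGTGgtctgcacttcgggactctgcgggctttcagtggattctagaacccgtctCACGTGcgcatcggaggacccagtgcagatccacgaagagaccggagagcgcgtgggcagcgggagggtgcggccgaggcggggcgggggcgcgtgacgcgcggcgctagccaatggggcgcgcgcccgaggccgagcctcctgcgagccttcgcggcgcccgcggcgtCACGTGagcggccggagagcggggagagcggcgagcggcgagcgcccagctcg
In all, 7 motifs were searched on both strands of the 8 promoters. The E-box CACGTG, the element bound by the clock factors, was found in 3 places of the Klf15 promoter, 228, 172 and 3 bases before the start site, the last of which overlapped a cAMP response element half-site (TGACG). It was found in 1 place of the Klf11 promoter, 214 bases before the start site, in 1 place each of Klf4 and Klf6, and in 7.15% of all 32851 promoters. The forkhead site was found 100 bases before the start of Klf9 and in no other of the 8, and in 3.65% of all promoters. The GC box GGGCGG was found in 4 places of Klf11, 1 of Klf15 and none of Klf9, and in 35.7% of all promoters. The shorter CACCC box (57.5% of all promoters) and the half-site TGACG (20.8%) were each found in Klf9 and Klf15, and GC and CACCC boxes can overlap. The glucocorticoid receptor half-site AGAACA (19.0%) and the TATA box TATAAA (13.6%) were not found in the 8 windows. The share of G and C bases was 73.3% in the Klf15 window, 77.7% in Klf11, 63.3% in Klf9, 74.3% in Klf4 and 63% in Klf6. The median of all promoters was 52.7%, and the shares over all promoters were not matched for base content. A match describes these letters only.

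Klf10 (chr15:38291463-38300706, minus strand) and Klf6 (chr13:5861482-5870394, plus strand), a gene induced by tissue injury, were called in 3 tissues each. Klf10 in muscle was at 25.1 CPM fed and 68.8 CPM fasting, 2.74-fold (2.503 to 3.005). In heart Klf10 was at 17.4 and 41.2 CPM, 2.37-fold (2.06 to 2.73), and in kidney at 21.1 and 36.8 CPM, 1.75-fold (1.56 to 1.96). It was not called in liver (27.0 and 22.6 CPM), white adipose (61.6 and 54.98 CPM) or brown adipose (65.9 and 62.1 CPM), where the fasting library was the lower, nor in lung and spleen. Klf6 in muscle was at 41.3 CPM fed and 101 CPM fasting, 2.45-fold (2.28 to 2.63). In heart Klf6 was at 85.2 and 167 CPM, 1.96-fold (1.84 to 2.09), and in brown adipose at 75.7 and 123 CPM, 1.63-fold (1.52 to 1.75). Klf6 was lower in the fasting library, and not called, in liver (15.98 and 11.8 CPM), spleen (148 and 124 CPM) and white adipose (222 and 198 CPM). Nor was it called in kidney and lung. Muscle and heart were thus the tissues in which both genes were called. Of 16 immediate early genes (Fos, Jun, Egr1 and others), which are induced within minutes of a stimulus, 9 were called higher and 1 lower in heart, and 6 higher and 4 lower in muscle, against 7.01% and 9.65% of all genes in heart and 7.80% and 16.4% in muscle. In kidney, where Klf10 was called, 3 were higher and 3 lower (4.48% and 6.23% of all genes), and in brown adipose, where Klf6 was called, 4 were higher and 6 lower (8.68% and 12.2%). In lung, where neither was called, 0 were higher and 9 lower (4.23% and 10.1%). Neither was called in liver, with 0 higher and 2 lower (7.34% and 15.8%; 199 and 190 CPM in sum). The same held in white adipose, with 1 and 4 (19.8% and 9.23%, 534 and 513 CPM), and spleen, with 0 and 3 (3.62% and 2.33%, 708 and 653 CPM). The summed level of that list was 340 and 568 CPM in fed and fasting heart, 291 and 371 CPM in muscle, 241 and 245 CPM in kidney, 490 and 626 CPM in brown adipose, and 1469 and 1135 CPM in lung. The part of the immediate early genes in the values of Klf10 and Klf6 was not tested.

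Klf4 (chr4:55527143-55532466, minus strand) and Klf2 (chr8:72319033-72321656, plus strand) were both called in kidney. Klf4 in kidney was at 5.39 CPM fed and 10.7 CPM fasting, 1.98-fold (1.60 to 2.48), and Klf2 at 8.42 and 15.9 CPM, 1.89-fold (1.59 to 2.26). Klf4 was also called in white adipose, at 51.1 and 77.4 CPM, 1.52-fold (1.41 to 1.63), and in heart, at 30.4 and 44.2 CPM, 1.46-fold (1.30 to 1.64). The white adipose call of Klf4 was lost with DESeq2 size factors, where its log2 fold change was 0.48. Klf4 is also a factor of epithelium, and the summed level of 5 epithelial markers was 33.2 CPM in fed and 299 CPM in fasting white adipose; their part in its value was not tested. In kidney the summed level of 9 endothelial markers (Pecam1, Cdh5 and others) was 505 CPM fed and 501 CPM fasting, and no endothelial marker was called there. In white adipose 3 of 9 endothelial markers were called lower (1443 CPM fed, 1248 CPM fasting in sum) and in heart 2 of 9 (1190 and 981 CPM), and their part in the Klf4 values was not tested. In bulk tissue a different number of cells of a type and a different amount of RNA per cell cannot be told apart. Both genes were highest in lung, where Klf2 was at 166 CPM fed and 139.95 CPM fasting and Klf4 at 146 and 124 CPM. They parted in spleen: Klf2 was at 131 and 136 CPM there, whereas Klf4 was at 14.6 and 10.9 CPM. Spleen was higher for Klf2 by 1.64 on the log2 scale and lower for Klf4 by 1.45, each against the mean of the other tissues. Both genes were lowest in liver, at 6.69 and 4.97 CPM for Klf2 and 1.91 and 1.88 CPM for Klf4.

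Klf5 (chr14:99298691-99315036, plus strand), a factor of proliferating epithelium, had the widest range of levels over tissues. Its level was 43.8 CPM fed and 53.5 CPM fasting in lung, and in the other 14 libraries it was at most 5.94 CPM. In liver only 4 and 5 counts were seen. Lung was higher than the mean of the other tissues by 4.62 on the log2 scale (SE 0.24, adjusted p = 7.5e-08, edgeR). Its single call between treatments was in white adipose, with 29 counts (1.25 CPM) fed and 163 counts (5.94 CPM) fasting, 4.74-fold (3.20 to 7.35). All 5 epithelial markers (Epcam, Cdh1, Krt8, Krt18, Krt19) were called higher in that same library. Their summed level was 33.2 CPM in fed and 299 CPM in fasting white adipose, and Epcam itself was at 1.16 and 59.7 CPM. The part of these cells in the Klf5 value was not tested. Leaving out white adipose lowered the estimate of Klf5 over tissues from 0.43 to 0.14.

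Klf3 (chr5:64803388-64832901, plus strand) was called in no tissue, with log2 fold changes from -0.12 in brown adipose to 0.37 in heart. Its counts share 404 exonic bases with Gm20033 on the opposite strand, which had 385 counts in all against 46900 for Klf3. Klf13 (chr7:63886351-63938915, minus strand), a factor known from lymphocytes, was called only in brown adipose, at 83.6 CPM fed and 130 CPM fasting, 1.55-fold (1.44 to 1.66). In that tissue 4 of 4 skeletal muscle markers were called lower, from a sum of 2125 CPM to 1007 CPM. There 2 of 4 smooth muscle markers were called higher (130.4 and 159 CPM), 2 of 4 fibroblast markers lower (458 and 443 CPM), and of 9 endothelial markers 1 higher and 2 lower (1046 and 1036 CPM). The part of these in the brown adipose values was not tested. Klf3 and Klf13 were both called higher in spleen and lung and lower in muscle and heart than in the mean of the other tissues, with total-count and trimmed-mean scaling. In CPM on library totals both were highest in spleen (249 and 230.3 CPM for Klf3, 265 and 255 CPM for Klf13) and lowest in muscle (22.9 and 21.2 CPM for Klf3, 40.8 and 34.5 CPM for Klf13). In the edgeR fit the lowest tissue was muscle for Klf3 (-1.34) and kidney for Klf13 (-0.79), and in liver Klf3 was called higher (0.55) whereas Klf13 was not called (-0.25). Of the 45 pairs of members their levels, scaled to library totals, had the highest Pearson r over the 16 libraries, at 0.91, and Klf2 and Klf15 the lowest, at -0.60. These are descriptions, since the 2 libraries of a tissue are not independent points.

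Tissue differed for all 10 members in the F test over tissues at an adjusted p under 0.05, as it did for 96.8% of all genes. In CPM, Klf5 and Klf4 had the widest ranges of mean level, 259-fold and 70.9-fold between lung and liver, and Klf10 the narrowest, 2.60-fold. In the edgeR contrasts Klf5 again had the widest range, from -3.19 in liver to 4.62 in lung, followed by Klf15, from -3.80 in spleen to 2.26 in liver, and Klf11 had the narrowest, from -0.72 in muscle to 0.77 in lung. Klf11 had the weakest tissue effect (adjusted p = 0.0290) and lost it when lung (adjusted p = 0.133), muscle (0.0917) or spleen (0.0666) was left out. Of 80 contrasts of 1 tissue with the mean of the other 7, 25 were called higher and 23 lower. Lung had 7 members called higher and the other 3 not called, where 30.6% of all genes were called higher and 30.3% lower. Spleen had 3 higher and 6 lower (36.5% and 37.4% of all genes). Kidney had 3 higher and 5 lower (30.2% and 26.3%), liver 3 and 4 (32.2% and 32.3%) and muscle 4 and 4 (31.8% and 33.5%). Heart had 1 higher and 3 lower (26.9% and 28.5%), brown adipose 2 and 1 (26.7% and 25.3%), and white adipose 2 called higher and the rest not called (26.5% and 25.5%). Scaling by total counts moved the median of all genes in the muscle contrast from -0.09 to -1.10 and in the liver contrast from -0.03 to -0.76. The sign of 11 contrasts changed with it, none of them called in opposite directions, and 21 of the higher and 20 of the lower calls were shared by both scalings. Those lost included Klf15 in muscle (0.97 with trimmed means, -0.04 with total counts), Klf10 in muscle (1.17 and 0.15) and Klf3 in liver (0.55 and -0.19). The spleen contrasts of Klf2, Klf4, Klf9 and Klf15, the lung contrast of Klf5 and the liver contrast of Klf15 kept their call with both scalings. With total counts white adipose had 6 members higher and 0 lower, where the median of all genes was 0.46. Liver had 1 higher and 7 lower, muscle 2 and 5, brown adipose 4 and 1, and spleen 4 and 4. Kidney had 3 and 4, heart 1 and 3, and lung 8 and 0.

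Of the other 7 Kruppel-like factors, 4 could be tested across tissues and none was called by edgeR or by DESeq2, or at an unadjusted p under 0.05. Their median log2 fold change was -0.10, against -0.01 for all genes and 0.39 for the 10 members. The members were chosen with earlier results of these data known, so these medians do not test a split within the family. Klf7 was called lower in muscle, at 24.01 CPM fed and 14.4 CPM fasting, and in liver. Klf12 was called lower in liver, at 101 and 60.0 CPM, and in muscle, and Klf16 in white adipose, at 15.8 and 9.44 CPM. Klf1, a factor of red cell precursors, went from 21 counts (0.927 CPM) to 110 counts (3.95 CPM) in spleen and was called higher there and in liver. Of 9 Sp factors, which share the zinc fingers, 5 were tested and none was called by edgeR or DESeq2, while 1 was lower at an unadjusted p under 0.05. In white adipose Sp2 was called lower, at 25.6 and 11.4 CPM, and Sp5 was called higher, from 3 to 100 counts, 26.3-fold (9.41 to 140). The 5 epithelial markers called higher in that library, at 33.2 and 299 CPM in sum, moved with it, and their part was not tested. Sp5 was called lower in kidney, at 284 and 218 counts, and Sp4 in liver, at 331 and 245 counts. Sp4 and Sp5 were outside the rule for named genes and were added after their values were seen. Klf1, Klf7, Klf12 and Klf16 were outside that rule too, and are given as the other Kruppel-like factors called within a tissue. Of 8 corepressors and regulators of the members (Ctbp1, Sin3a, Wwp1 and others), edgeR called none and DESeq2 called 2 lower, and 4 were lower at an unadjusted p under 0.05, where 1004 of all 17296 genes were lower by DESeq2 and 2274 at the unadjusted p.

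Genes known to act with the members, or to share their inputs, were counted in the same fit. Of all genes tested in that fit, 2.31% were called higher and 2.08% lower, with a median log2 fold change of -0.01. The lists overlap: Per1 is a glucocorticoid response gene and a clock gene here, and Cebpd a glucocorticoid response gene and an adipogenic partner. Of 10 glucocorticoid response genes, 8 were called higher and none lower across tissues, with a median log2 fold change of 1.34. Tsc22d3 was higher by 1.30 (SE 0.14), Per1 by 1.31 (SE 0.16) and Zbtb16 by 1.83 (SE 0.26). In liver 7 of these 10 genes were called higher and 1 lower, against 7.34% and 15.8% of all genes. Muscle had 8 and 1 (7.80% and 16.4%) and brown adipose 8 and 1 (8.68% and 12.2%). White adipose had 8 and 0 (19.8% and 9.23%) and heart 9 and 0 (7.01% and 9.65%). Kidney had 9 and 0 (4.48% and 6.23%), lung 8 and 0 (4.23% and 10.1%) and spleen 7 and 0 (3.62% and 2.33%). Of 16 clock genes 3 were called higher (Per1, Per2 and Tef), and the time of collection was the same for both groups. Of 10 genes of amino acid breakdown and glucose supply linked to Klf15, only Pck1, the enzyme that commits oxaloacetate to gluconeogenesis, was called over tissues, at 1.14 (SE 0.26). Within tissues 6 of the 10 were called higher and 1 lower in liver (7.34% and 15.8% of all genes), 4 and 2 in brown adipose (8.68% and 12.2%) and 3 and 4 in white adipose (19.8% and 9.23%). In the other 5 tissues 1 or 2 were called higher and 0 or 1 lower. Heart had 2 and 1 (7.01% and 9.65% of all genes), and lung 2 and 1 (4.23% and 10.1%). Kidney had 1 and 1 (4.48% and 6.23%), spleen 2 and 0 (3.62% and 2.33%), and muscle 1 and 0 (7.80% and 16.4%). Pck1 was at 1066 CPM fed and 4767 CPM fasting in liver and at 1638 and 6942 CPM in kidney. In the same list Gpt was called higher in liver, at 225 and 332 CPM, and lower in white adipose, at 165 and 19.1 CPM. The glucose transporter gene Slc2a4 was called lower in white adipose, at 217 and 63.5 CPM. The part of the epithelial and endothelial markers called in white adipose in these values of Gpt and Slc2a4 was not tested. Among 7 endothelial and lymphocyte genes linked to Klf2 and Klf4, only Itgb7, an integrin of lymphocytes, was called, and it was lower by 0.52 (SE 0.10). No B cell or T cell marker was called in that fit, but 3 of 4 and 1 of 5 were lower at an unadjusted p under 0.05, with median log2 fold changes of -0.45 and -0.39, and their part in the Itgb7 value was not tested. Of 5 adipogenic partners Cebpd was called higher, at 1.75 (SE 0.35), and Srebf1 lower, at -1.29 (SE 0.30). Of 16 immediate early genes Egr3 was lower by 1.35 and Fos by 0.59, and none was called higher by edgeR. By DESeq2 2 were higher and 4 lower (848 and 1004 of all 17296 genes), and at an unadjusted p under 0.05 4 were higher and 4 lower (1836 and 2274 of all genes).

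The genes most like each member in level, log2(CPM + 1) over the 16 libraries among 13223 genes with a mean of at least 5 CPM, were counted by Pearson r. For Klf2 they were Zfp366 and Ggta1 (r = 0.98 for both), for Klf3 Myd88 and Rela (0.98 for both), and for Klf4 Rhoj (0.99) and Rasgrf2 (0.97). For Klf5 they were Sgsm3 (0.96) and Kank4 (0.94), for Klf6 Myh11 and Plp2 (0.96 for both) and for Klf13 Gm38375 (0.98) and Tra2a (0.97). For Klf10 (Lox, 0.83, and Tmem140, 0.82), Klf11 (Tinagl1, 0.89, and Sptan1, 0.88) and Klf15 (Pard3, 0.87, and Kif21a, 0.86) the closest genes were less alike. The gene most like Klf9 was another member, Klf15 (r = 0.86). By the fasting change over the 8 tissues, the closest genes were Sumo3 for Klf9 (0.94), Id3 (0.98) and Tnfrsf14 (0.98) for Klf11, and Xkr8 (0.92) and F8a (0.91) for Klf15. The points share tissues, libraries and groups of mice, and the genes were picked as the highest of many correlations.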

How the data were processed

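Total RNA of pooled tissue was sequenced as strand-specific, paired-end short reads. The authors trimmed reads with fastp (0.23.2), aligned them with HISAT2 (2.2.1.0) to GRCm38 and counted reads per gene with featureCounts of Subread (2.0). The deposited table holds raw counts of 16 libraries and, as another value, the gene length in bases given by the authors; whether counting used strand is not given in the sources used here. The table has no counts for 37 mitochondrial genes. CPM were computed on library totals. Identifiers of 55144 of 55385 genes matched a symbol.

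Each tissue was tested with Fisher's exact test in scipy (1.17.1), and all tissues with edgeR (4.0.16; trimmed mean of M-values (TMM) factors, filterByExpr, quasi-likelihood test, tissue as a block, Benjamini-Hochberg adjustment over 17296 genes). DESeq2 (1.42.0) was an alternative, together with other scalings, filters, thresholds, assumed variation between pools and left-out tissues. On simulated data with 200 genes changed 2-fold, the edgeR fit recovered 194 with 10 false calls. The calls within a tissue recovered 199 in brown adipose with 81 false calls among 24489 genes, and 200 in lung with 103 among 29782. Apart from the changed genes, the simulated libraries of a tissue differed by counting error only. Those false calls therefore leave out variation between pools and do not give the false call rate of the real libraries. The members, lists and tests were chosen with earlier results of these data known. All members were named; of each list, up to 3 genes called across tissues or changed by over 1 (log2) in a tissue at 5 CPM or more, and the 2 genes closest to each member by Pearson r, some of which are not reported here. Libraries are pools, so intervals of folds within a tissue cover counting error only, and those of the edgeR fit cover the spread over tissues.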

Additional observations from a re-analysis of the deposited data

Results flagged for a closer look

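The log2 fold change of Klf5 in white adipose, 2.25, stood apart from the other 7 tissues of that gene, which lay between -0.23 and 0.29. Its gap to the nearest tissue, as a share of the whole range, was above the critical value of Dixon's test for 8 values (95% level), which chance passes in about 1 of 20 sets, and 10 members were examined. The fed library held 29 counts and the fasting library 163. The summed level of 5 epithelial markers in the same libraries was 33.2 and 299 CPM, and their part in the Klf5 value was not tested.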

How the results depend on the processing

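Of the 30 pairs of member and tissue called higher, 30 were also called with TMM factors, without the 10 highest genes of each library, with a pseudocount of 1 CPM and with adjusted p values, and 29 with DESeq2 size factors. The count was 12 at a log2 threshold of 1. It was 10 and 0 when edgeR's exact test assumed a coefficient of variation between pools of 0.2 and 0.4. The fit across tissues had 0.196, which is a spread over tissues and does not measure that between pools. The 10 pairs called at 0.2 were Klf9 and Klf11 in 2 tissues each, Klf10 and Klf15 in 2 each, and Klf5 and Klf6 in 1 each. Without white adipose, lung or brown adipose, settings added after seeing the data, 25 to 27 pairs were called. Calls were made in each tissue alone, so leaving a tissue out only took away its own calls. No setting called a pair lower. Across tissues, 3 members were called in the main fit, 0 without the tissue block, where the spread between tissues enters the error, and 1 (Klf15) without both adipose tissues, where Klf9 had an adjusted p of 0.0610 and Klf11 of 0.0686. Leaving out 1 tissue at a time left 1 to 3 members called, and the cause was not tested. The tissue effect was called for 9 or 10 members in these fits. Contrasts called higher and lower numbered 29 and 24 with total counts, a setting added after seeing the data. Fed and fasting libraries were paired by tissue, in the block and in the sign-flip test, and not by replicate number, since each group held 1 library. Calls within a tissue rest on 1 library per treatment, and Klf5 in liver, brown adipose and heart on at most 12 counts per library.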
